A study of Mus musculus with 4 samples.

Results

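The genes described here encode carriers that move amino acids and related small molecules across membranes, from the solute carrier families Slc1a, Slc6a, Slc7a, Slc36a, Slc38a and Slc43a, with the monocarboxylate carriers of Slc16a set beside them for contrast. They were chosen by symbol, without Slc7a2, Slc7a5 and Slc7a11, and with at least 10 counts summed over the 4 libraries. Of 34745 genes in the deposited table, 75 matched by symbol and 38 of these reached the minimum. Of these, 37 encode carriers, and Slc7a6os is a separate gene next to Slc7a6 that shares only its name. Of the 37 genes under the minimum, 26 had no count in any library. Just inside the minimum were Slc16a4 with 10 counts and Slc1a1 with 12, and just outside were Slc6a15 with 9 and Slc43a1 with 7.

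RNA came from adherent peritoneal macrophages of wildtype C57BL/6 mice, collected 3 days after an injection of 2 ml of 3% thioglycolate medium into the abdominal cavity. Every culture was stimulated for 4 hours with lipopolysaccharide (LPS, a bacterial cell wall component sensed by Toll-like receptor 4), used at 100 ng/ml. Before LPS, 2 samples received 50 µM MB-3, known as a GCN5 (acetyltransferase) inhibitor, and 2 received its solvent DMSO. No cells without LPS were analysed here, so the values describe an effect of MB-3 on stimulated cells. Each sample is labelled as peritoneal macrophages, although the title of the series speaks of bone marrow-derived ones.

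Amino acid carriers work as sodium- or proton-coupled pumps, as facilitators, or as exchangers that trade an amino acid for another. Many Slc7a carriers reach the cell surface only when bound to the heavy chain CD98, the product of Slc3a2, while some Slc36a and Slc38a proteins sit in lysosomes and report amino acid supply to the growth kinase mTORC1. In macrophages, arginine uptake feeds nitric oxide synthesis, glutamine feeds the citric acid cycle, and lactate leaves glycolytic cells through Slc16a carriers.

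The libraries held 15598531 to 21320618 counts, so that 1 count was worth 0.0466 to 0.0627 CPM (counts scaled to library size with TMM factors). All 8 macrophage markers were detected. Their summed levels, mostly Lyz2, were 24450 and 25022 CPM with DMSO and 31079 and 30946 CPM with MB-3. Of the 8 markers, 4 (Cd68, Csf1r, Lyz2 and Itgam) were higher and 3 (Mertk, Fcgr1 and Cd14) lower with MB-3. Summed markers of B cells, T cells, mast cells and resident macrophages stayed at or below 4.07 CPM in every library. Those of eosinophils were between 5.69 and 8.05 CPM, with Epx and Prg2 at 0. The dendritic cell markers summed to 3.73 and 3.45 CPM with DMSO and to 6.26 and 6.47 CPM with MB-3, with Xcr1 at 0 and 1 of them, Ccr7, higher (edgeR adjusted p = 0.0366). The 5 neutrophil markers summed to 32.1 and 34.3 CPM with DMSO and 27.99 and 23.2 CPM with MB-3, with Ly6g at 0 and 1 of them, S100a8, lower. The 6 fibroblast and mesothelial markers, mostly Dcn, summed to 44.6 and 93.9 CPM with DMSO and to 60.4 and 116 CPM with MB-3, higher in replicate 2 of both groups. The part of these cells in the results below was not tested. Whether the replicates are separate cultures or separate animals is not in the labels. Each p-value therefore covers no more than the spread among these libraries, which may be technical.

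Amino acid carriers moved in both directions with MB-3. Of the 38 genes, 33 had enough counts to be tested, and 9 were higher and 5 lower at an adjusted p under 0.05 (quasi-likelihood test of edgeR, Benjamini-Hochberg adjusted over all 11841 genes tested). These 14 genes are 42.4% of those tested, while 37.1% of all genes were called. The members were chosen with earlier results of these data known, so this comparison is descriptive. By direction, 27.3% of the transporter genes were higher against 16.9% of all genes, and 15.2% were lower against 20.2% of all genes. The median log2 fold change was 0.08 for the transporter genes and -0.01 for all genes. When MB-3 replicate 1 was left out, 5 transporter genes and 1283 of all genes were higher, against 9 and 1999. In bulk RNA, fewer cells of a type and less RNA per cell cannot be told apart. The carriers that rose were Slc43a2, Slc36a4, Slc38a1, Slc38a2, Slc38a9, Slc6a8, Slc7a6, Slc16a1 and Slc16a9, and those that fell were Slc6a12, Slc6a19, Slc7a7, Slc7a8 and Slc38a6. By family, Slc6a had 2 lower and 1 higher of 5 tested genes, as had Slc7a. In Slc38a 3 of 7 were higher and 1 lower, in Slc36a and Slc43a 1 of 2 each was higher, in Slc16a 2 of 8 were higher, and in Slc1a none of 3 was called by edgeR, by DESeq2 or at an unadjusted p under 0.05.

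**Figure D1:**
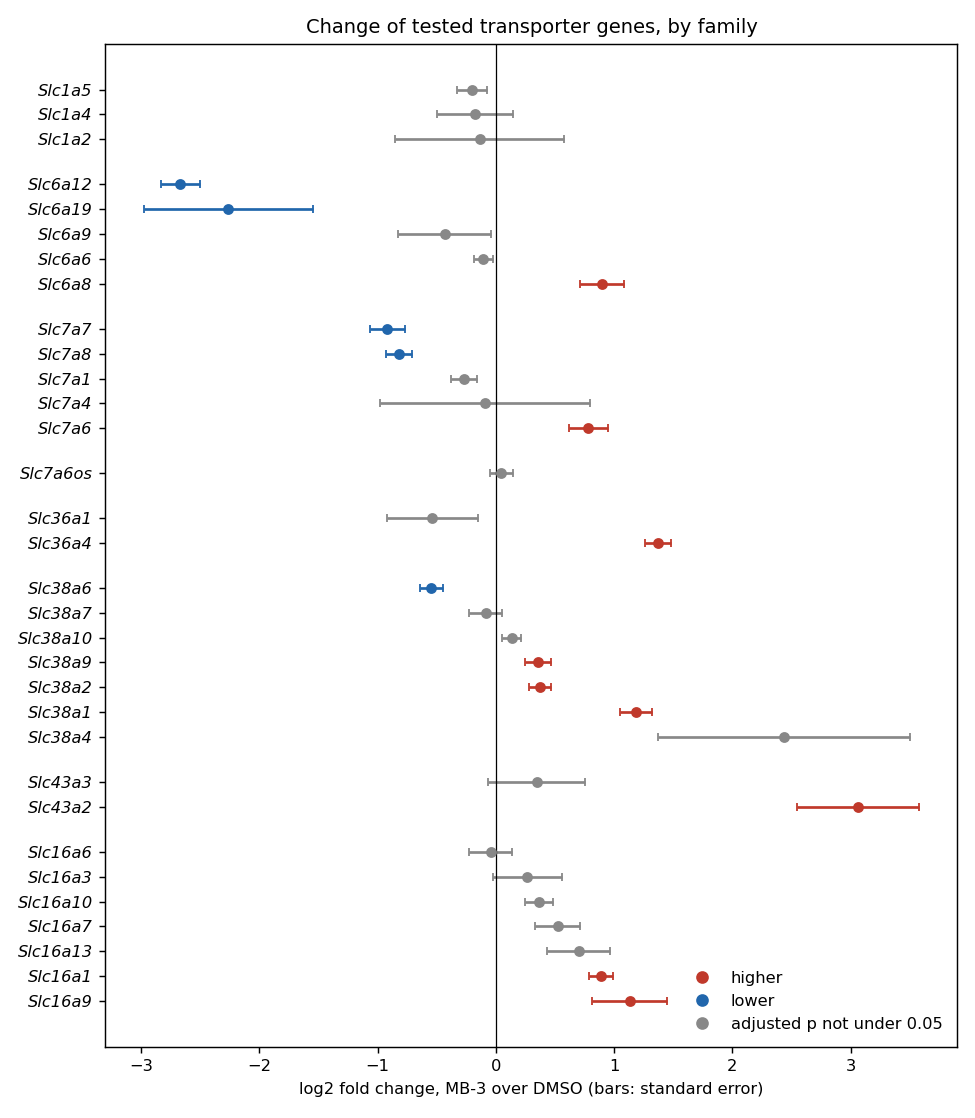
Log2 fold change of MB-3 over DMSO for 32 of the tested genes, grouped by family, with the standard error as bars (horizontal axis in log2 units). Red genes were higher and blue genes lower at an adjusted p under 0.05 in edgeR's quasi-likelihood test. Values run from -2.67 for Slc6a12 to 3.06 for Slc43a2.

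Among the Slc7a genes, those of the paired exchangers y+LAT1 and y+LAT2 moved in opposite directions. Both exchangers trade cationic amino acids such as arginine for neutral ones and both need CD98. Slc7a7 (ENSMUSG00000000958, chromosome 14, 54369442 to 54417780), which encodes y+LAT1, was at 13.8 and 13.8 CPM in DMSO replicates 1 and 2 and at 7.10 and 7.53 CPM in MB-3 replicates 1 and 2. Both MB-3 libraries were well below both DMSO libraries, and Slc7a7 fell by 0.92 on the log2 scale (SE 0.15, edgeR adjusted p = 0.00417). Slc7a6 (ENSMUSG00000031904, chromosome 8, 106168875 to 106198704), which encodes y+LAT2, was at 8.34 and 8.33 CPM with DMSO and at 12.8 and 15.8 CPM with MB-3. The groups did not overlap, and Slc7a6 rose by 0.78 (SE 0.16, edgeR adjusted p = 0.0125). The rise of Slc7a6 missed the threshold without MB-3 replicate 2 (log2 fold change 0.62, edgeR adjusted p = 0.0602). As a ratio of length-scaled levels (FPKM), Slc7a6 over Slc7a7 was 0.745 and 0.747 in the DMSO libraries and 2.23 and 2.60 in the MB-3 libraries. Thus y+LAT1 transcripts were the more abundant of the pair with DMSO and y+LAT2 transcripts with MB-3. A neighbouring row, Oxa1l, overlaps Slc7a7 by 232 bases, and whether counting used strand is not given in the sources used here.

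Slc7a8 (ENSMUSG00000022180, chromosome 14, 54722216 to 54781886) encodes LAT2, a CD98-bound exchanger of neutral amino acids, and is near Slc7a7 on the same chromosome. It was at 58.0 and 51.8 CPM with DMSO and at 29.4 and 32.9 CPM with MB-3. Every MB-3 value was below every DMSO value, and Slc7a8 fell by 0.82 (SE 0.11, edgeR adjusted p = 0.00200). Slc7a1 (ENSMUSG00000041313, chromosome 5, 148327410 to 148399904) encodes CAT1, the widely expressed arginine and lysine carrier. It was at 63.5 and 53.5 CPM with DMSO and at 49.6 and 47.4 CPM with MB-3. These values do not overlap but lie close together, and the log2 fold change of -0.27 (SE 0.11) missed the threshold (edgeR adjusted p = 0.10). It was -0.38 without DMSO replicate 2 (edgeR adjusted p = 0.0411) and -0.094 without DMSO replicate 1 (edgeR adjusted p = 0.588). The CAT-like Slc7a4, with 31 counts in all, had a log2 fold change of -0.09 (SE 0.89), and Slc7a3, the gene of the arginine carrier CAT3, had 15 counts and was not tested. Slc7a6os was at 34.1 and 33.6 CPM with DMSO and at 33.4 and 36.4 CPM with MB-3, overlapping groups with a log2 fold change of 0.04 (SE 0.097, edgeR adjusted p = 0.751).

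The genes set aside by the selection rule belong to Slc7a. Slc7a2, the gene of the inducible arginine carrier CAT2, was lower (-3.57, SE 0.14), Slc7a11, the gene of the cystine and glutamate exchanger xCT, was higher (2.71, SE 0.076), and Slc7a5, the gene of the large neutral amino acid carrier LAT1, had -0.37 (SE 0.14, edgeR adjusted p = 0.0780). Slc7a5 was at -0.53 without DMSO replicate 2 (edgeR adjusted p = 0.0196) and at -0.13 without DMSO replicate 1 (edgeR adjusted p = 0.497). With these genes, 2 of 8 Slc7a genes were higher and 3 lower. In FPKM, Slc7a1 over Slc7a2 was 0.106 and 0.0988 with DMSO and 1.17 and 0.879 with MB-3. The widely expressed arginine carrier gene was thus far below the inducible one with DMSO and near it with MB-3.

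The promoter windows of RefSeq (build GRCm38.p6) held 300 bases, 250 before and 50 after a start. They were available for 27 of the transporter genes reported here and missing for 10. Both strands were searched for 3 sets of letters. TGATGNAA is the core of the composite C/EBP-ATF element bound by ATF4, the transcription factor of the amino acid starvation response, and occurs in the windows of 4.51% of 27025 genes. TGACNNNGC is the core of the antioxidant response element bound by NRF2 and occurs in 14.0% of genes. TCACGTGA is the palindromic core of the E-box bound by TFEB and its relatives, regulators of lysosomal genes, and occurs in 1.12%. The first was found at Slc7a7 and Slc1a4, the second at Slc16a1, Slc36a1, Slc38a2, Slc6a13, Slc6a9, Slc7a1 and Slc7a6, and the last at Slc36a1, where it overlaps the second. Of the higher genes with a window, 3 of 7 held the antioxidant letters and 0 of 7 the ATF4 letters. Of the lower genes, these counts were 0 of 5 and 1 of 5. Among all 27 genes with a window, 7 held the antioxidant letters and 2 the ATF4 letters. Slc36a1, Slc6a13, Slc6a9 and Slc7a1 held the antioxidant letters without being called. A link of the letters to direction was not tested. The stretches around the matches of the opposed pair Slc7a7 and Slc7a6 are shown 5′ to 3′ on the gene's strand, with the matched letters in capitals. That of Slc7a7 lies on the minus strand at chr14:54418052-54418111, with the match 141 bases upstream of a RefSeq start. That of Slc7a6 lies on the plus strand at chr8:106168827-106168886, with the match 1 and 68 bases upstream of its RefSeq starts. A second match of the ATF4 letters in Slc7a7 lies 1 and 243 bases upstream of its RefSeq starts. These matches describe the sequence of the windows only, and binding was not measured. Sequence outside the windows was not searched, so a gene without a match may hold the letters elsewhere.
Slc7a7: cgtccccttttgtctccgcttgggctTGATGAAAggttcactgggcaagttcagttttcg
Slc7a6: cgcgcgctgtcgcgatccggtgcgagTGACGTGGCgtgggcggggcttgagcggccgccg

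**Figure D2:**
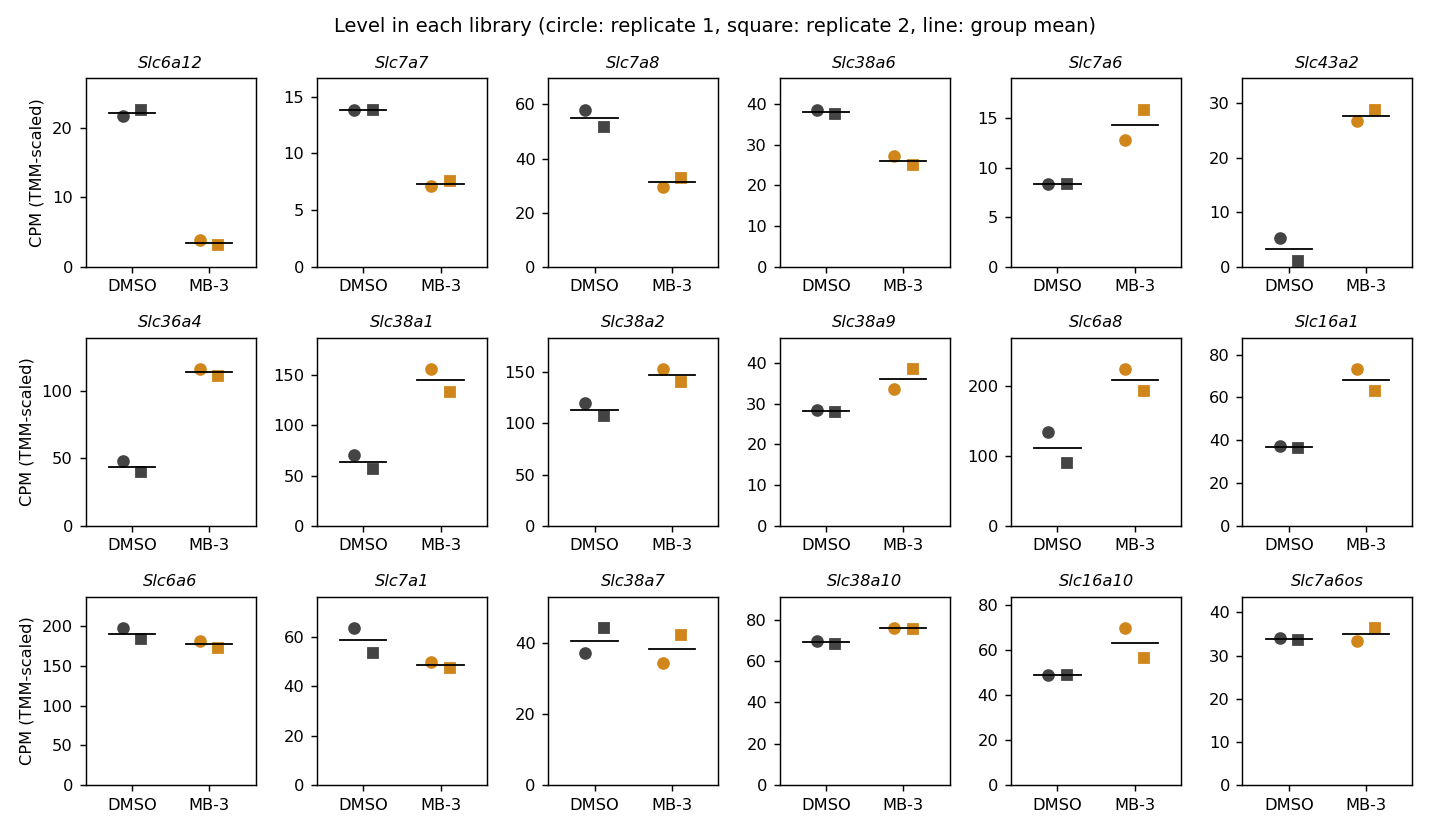
Level of 18 transporter genes in each library, in CPM scaled by TMM factors, on axes that start at 0. The upper and middle rows hold the 12 genes past the threshold with a mean of at least 5 CPM, and the bottom row the 6 genes not past it with the highest mean FPKM. Circles are replicate 1, squares replicate 2 and lines group means. In the upper and middle rows the groups do not overlap in any gene, which follows largely from choosing genes past the threshold. In the bottom row the groups of Slc6a6, Slc7a1, Slc38a10 and Slc16a10 do not overlap either.

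The Slc6a family, sodium- and chloride-coupled carriers of amino acids, neurotransmitters and osmolytes, held the largest fall of the 33 transporter genes tested, which leave out Slc7a2. Slc6a12 (ENSMUSG00000030109, chromosome 6, 121343076 to 121365775) encodes BGT1, which takes up the osmolyte betaine and the neurotransmitter GABA. It was at 21.8 and 22.7 CPM with DMSO and at 3.85 and 3.12 CPM with MB-3. The replicates of each group lay close together and far from the other group. Slc6a12 fell by 2.67 on the log2 scale (SE 0.16), 6.36-fold, with an edgeR adjusted p of 8.56e-05. Its chromosomal neighbour Slc6a13, a GABA and taurine carrier gene, had 5 and 7 counts in the DMSO libraries and 7 and 3 in the MB-3 libraries and was too low to test. Slc6a8 (ENSMUSG00000019558, chromosome X, 73673150 to 73682502) encodes the creatine carrier. Its level was 133.8 and 89.9 CPM with DMSO and 225 and 193 CPM with MB-3. The DMSO libraries differed from each other, but both were below both MB-3 libraries, and Slc6a8 rose by 0.90 (SE 0.19, edgeR adjusted p = 0.0119). The rise was 1.26 without DMSO replicate 1 and 0.65 without DMSO replicate 2, and without MB-3 replicate 1 the value of 0.79 missed the threshold (edgeR adjusted p = 0.0531).

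Slc6a6 (ENSMUSG00000030096, chromosome 6, 91684053 to 91759066) encodes the taurine carrier TauT, another osmolyte carrier. It was at 198 and 184 CPM with DMSO and at 182 and 173 CPM with MB-3. The groups lay next to each other, and the value of -0.11 (SE 0.079) did not pass (edgeR adjusted p = 0.343). Of the 3 osmolyte and creatine carrier genes, 1 thus fell, 1 rose and 1 did not pass. The ratio of Slc6a8 to Slc6a6 in FPKM was 0.741 and 0.536 with DMSO and 1.35 and 1.23 with MB-3. Slc6a19, the gene of the neutral amino acid carrier B0AT1 of gut and kidney, had only 12 and 9 counts in the DMSO libraries and 2 and 2 in the MB-3 libraries. The DMSO over MB-3 ratio was 5.03 (exact 95% interval for counting error 1.70 to 20.1). Its call rests on these few counts, with an edgeR adjusted p of 0.0493, and was lost in 9 of 10 alternative settings (without MB-3 replicate 1, edgeR adjusted p = 0.230, without MB-3 replicate 2, 0.225, and without DMSO replicate 2, 0.204). The glycine carrier gene Slc6a9 had -0.43 (SE 0.39), and the serotonin carrier gene Slc6a4, with 10 and 14 counts against 4 and 5, was not tested.

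The Slc38a family includes carriers of glutamine and small neutral amino acids, and 3 of its 7 tested genes were higher and 1 lower. Slc38a1 (ENSMUSG00000023169, chromosome 15, 96571418 to 96642913) encodes SNAT1, a sodium-coupled glutamine importer. It was at 70.8 and 56.6 CPM with DMSO and at 156 and 133 CPM with MB-3. Each MB-3 library was well above each DMSO library, and Slc38a1 rose by 1.18 (SE 0.14, 2.27-fold, edgeR adjusted p = 0.00113). Slc38a2 (ENSMUSG00000022462, chromosome 15, 96687394 to 96699698), its neighbour on chromosome 15, encodes SNAT2, which is known to be induced by amino acid shortage. It was at 119.6 and 107 CPM with DMSO and at 153 and 141 CPM with MB-3. Here the groups also did not overlap, and Slc38a2 rose by 0.37 (SE 0.093, edgeR adjusted p = 0.0223). This smaller rise missed the threshold without DMSO replicate 2 (0.31, edgeR adjusted p = 0.0565) and without MB-3 replicate 1 (0.31, edgeR adjusted p = 0.113). The FPKM ratio of Slc38a1 to Slc38a2 was 0.326 and 0.291 with DMSO and 0.562 and 0.522 with MB-3. Slc38a4, the SNAT4 gene beside them, had 0 and 5 counts in the DMSO libraries and 17 and 11 in the MB-3 libraries. The MB-3 over DMSO ratio was 5.85 (exact 95% interval for counting error 2.23 to 19.4). It did not pass across replicates (edgeR adjusted p = 0.123), and passed only without DMSO replicate 2 (edgeR adjusted p = 0.0401).

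The promoter window of Slc38a2 holds the antioxidant letters on the minus strand at chr15:96699722-96699781, 27 bases upstream of the start, shown in capitals because Slc38a2 had the highest mean FPKM of all 38 genes.
Slc38a2: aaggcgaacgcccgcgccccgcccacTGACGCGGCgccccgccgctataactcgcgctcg

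Slc38a9 (ENSMUSG00000047789, chromosome 13, 112660766 to 112738743) encodes a lysosomal arginine sensor that activates mTORC1. It was at 28.5 and 27.8 CPM with DMSO and at 33.6 and 38.5 CPM with MB-3. The groups did not overlap, and the rise of 0.35 (SE 0.11) was close to the threshold (edgeR adjusted p = 0.0448). It was lost in 7 of 12 alternative settings, among them each of the 4 that left out a library (edgeR adjusted p = 0.0787 without DMSO replicate 1, 0.120 without DMSO replicate 2, 0.0520 without MB-3 replicate 1 and 0.208 without MB-3 replicate 2). Slc38a6 (ENSMUSG00000044712, chromosome 12, 73286779 to 73354049), a member with no settled substrate, went the other way. It was at 38.5 and 37.4 CPM with DMSO and at 27.1 and 24.9 CPM with MB-3. All DMSO values were above all MB-3 values, and Slc38a6 fell by 0.55 (SE 0.099, edgeR adjusted p = 0.00702). Slc38a7 (ENSMUSG00000036534, chromosome 8, 95835920 to 95853539), which encodes the SNAT7 exporter of lysosomal glutamine and asparagine, was at 37.3 and 44.4 CPM with DMSO and at 34.5 and 42.4 CPM with MB-3. These ranges overlap (-0.08, SE 0.14, edgeR adjusted p = 0.673). Slc38a10 (ENSMUSG00000061306, chromosome 11, 120103960 to 120151346), a less studied intracellular member, was at 69.9 and 68.4 CPM with DMSO and at 76.0 and 75.8 CPM with MB-3. The shift of 0.13 (SE 0.080) did not pass (edgeR adjusted p = 0.236).

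The Slc36a and the facilitative Slc43a carriers each had 1 gene that rose. Slc36a4 (ENSMUSG00000043885, chromosome 9, 15709738 to 15742384) encodes PAT4, a carrier of proline and tryptophan. It was at 48.0 and 39.8 CPM with DMSO and at 116 and 111 CPM with MB-3. Both MB-3 libraries stood far above both DMSO libraries, and Slc36a4 rose by 1.37 (SE 0.11, 2.59-fold, edgeR adjusted p = 2.74e-04). Slc36a1 encodes PAT1, which exports small amino acids from lysosomes, and was singled out after its values were seen. It was at 14.1 and 13.7 CPM with DMSO but at 5.42 and 13.7 CPM with MB-3, from 97 and 246 counts. MB-3 replicate 1 alone was low, while MB-3 replicate 2 was at the DMSO level, and the value of -0.54 (SE 0.39) did not pass (edgeR adjusted p = 0.321). Without MB-3 replicate 2 it was -1.36 (edgeR adjusted p = 0.00561) and without MB-3 replicate 1 it was -0.02. The FPKM ratio of Slc36a4 to Slc36a1 was 3.95 and 3.36 with DMSO and 24.9 and 9.40 with MB-3.

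The start of Slc36a1 is shown because it is the single searched transporter window with the E-box letters. They are in capitals, on the plus strand at chr11:55204310-55204369, 4 bases upstream of the start.
Slc36a1: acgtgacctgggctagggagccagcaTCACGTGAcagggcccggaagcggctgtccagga

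Slc43a2 (ENSMUSG00000038178, chromosome 11, 75531694 to 75577575) encodes LAT4, a carrier of branched-chain amino acids, phenylalanine and methionine. It was at 5.27 and 1.07 CPM with DMSO, from 113 and 17 counts, and at 26.7 and 28.8 CPM with MB-3, from 478 and 517 counts. The MB-3 libraries were alike and both far above the DMSO libraries, which differed from each other. Slc43a2 rose by 3.06 (SE 0.52, 8.34-fold, edgeR adjusted p = 0.00529), the largest rise among the transporter genes that passed. Its size rests on which DMSO library is the reference: the rise was 4.74 without DMSO replicate 1 and 2.41 without DMSO replicate 2, and the gene was called in both cases and in all 12 alternative settings. Slc43a3, whose product carries purine nucleobases rather than amino acids, was at 2.66 and 4.26 CPM with DMSO and at 2.91 and 5.80 CPM with MB-3, overlapping groups (0.35, SE 0.41).

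No Slc1a gene passed the threshold. Slc1a5, the gene of the glutamine exchanger ASCT2, was the most abundant of them, at 23.1 and 20.2 CPM with DMSO and at 19.6 and 18.1 CPM with MB-3 (-0.20, SE 0.12, edgeR adjusted p = 0.255). Slc1a4, the gene of the related ASCT1, was at 4.94 and 3.01 CPM with DMSO and at 3.97 and 3.12 CPM with MB-3, within the spread of the DMSO libraries (-0.18, SE 0.32). Its promoter holds the ATF4 letters. The glutamate carrier gene Slc1a2 had 32 counts in all (-0.14, SE 0.71). Slc1a1, the gene of the glutamate and aspartate carrier EAAT3, had 0 and 1 counts in the DMSO libraries and 6 and 5 in the MB-3 libraries. The MB-3 over DMSO ratio was 11.5 (exact 95% interval for counting error 1.67 to 494), and the gene was too low to test. With 11 counts from MB-3 and 1 from DMSO, it reached the minimum only through MB-3, so the interval is no test. The sums of FPKM over the Slc1a genes were 4.10 and 3.48 with DMSO and 3.34 and 3.16 with MB-3.

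Of the 8 tested genes of the monocarboxylate family Slc16a, 2 passed the threshold, both higher (25.0% called, against 37.1% of all genes), and the median was 0.44. Slc16a1 (ENSMUSG00000032902, chromosome 3, 104638668 to 104658462) encodes MCT1, which moves lactate and pyruvate with protons. It was at 37.4 and 36.3 CPM with DMSO and at 73.4 and 63.2 CPM with MB-3. Both MB-3 libraries were above both DMSO libraries, and Slc16a1 rose by 0.89 (SE 0.10, 1.85-fold, edgeR adjusted p = 0.00123). Slc16a3 encodes MCT4, the lactate exporter of glycolytic cells, and was chosen after its values were seen because a single library sets it. It was at 13.5 and 13.2 CPM with DMSO and at 21.2 and 10.99 CPM with MB-3. The MB-3 libraries lay on either side of the DMSO libraries, and the value of 0.27 (SE 0.29) turned to -0.28 without MB-3 replicate 1 and to 0.66 without MB-3 replicate 2 (edgeR adjusted p = 0.0287). Slc16a9, the gene of the carnitine carrier MCT9, was at 2.05 and 1.504 CPM with DMSO and at 3.46 and 4.41 CPM with MB-3. It rose by 1.13 (SE 0.32, edgeR adjusted p = 0.0338), and the call was lost in each of the 4 settings that left out a library (edgeR adjusted p = 0.0533 without DMSO replicate 1, 0.123 without DMSO replicate 2, 0.0633 without MB-3 replicate 1 and 0.154 without MB-3 replicate 2).

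Slc16a10 (ENSMUSG00000019838, chromosome 10, 40033535 to 40142254), the Slc16a gene closest in substrate to the amino acid families, encodes TAT1, a facilitator of aromatic amino acids. It was at 49.0 and 48.9 CPM with DMSO and at 69.7 and 56.2 CPM with MB-3. The groups did not overlap, but the MB-3 libraries differed, and the value of 0.36 (SE 0.12) missed the threshold (edgeR adjusted p = 0.0576). It passed in 6 of 12 alternative settings, among them without MB-3 replicate 2 (0.51, edgeR adjusted p = 0.0237), and was 0.20 without MB-3 replicate 1 (edgeR adjusted p = 0.251). Slc16a7, the gene of the pyruvate carrier MCT2, was at 10.0 and 7.33 CPM with DMSO and at 12.3 and 12.7 CPM with MB-3 (0.52, SE 0.19, edgeR adjusted p = 0.0744). Without DMSO replicate 1 it passed (0.82, edgeR adjusted p = 0.0256), and without DMSO replicate 2 it was 0.33 (edgeR adjusted p = 0.238). Slc16a13 had 0.70 (SE 0.27, edgeR adjusted p = 0.0864) and Slc16a6 had -0.04 (SE 0.19). Slc16a6, known in zebrafish as a carrier of ketone bodies, overlaps Amz2 by 1959 bases and Arsg by 225, so its counts are uncertain. Slc16a4, with 10 counts, was not tested.

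The window of Slc16a1 is shown as that of the monocarboxylate carrier gene with the smallest p. It lies on the plus strand at chr3:104638431-104638490, and the capitals are the antioxidant letters as read on the opposite strand, 207 bases upstream of the start.
Slc16a1: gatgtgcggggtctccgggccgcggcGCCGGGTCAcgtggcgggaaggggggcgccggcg

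Scaled to length, which allows genes to be compared with each other, the highest mean FPKM over the 4 libraries, leaving out Slc7a2, Slc7a5 and Slc7a11, belonged to Slc38a2 (28.1), followed by Slc7a6os (22.5), Slc6a6 (17.0), Slc6a8 (16.2), Slc36a4 (12.4), Slc38a1 (12.3), Slc16a1 (11.8), Slc7a8 (10.7) and Slc16a10 (10.3). Within this order the neighbours Slc36a4, Slc38a1 and Slc16a1 differed less from each other than each differed between groups. With DMSO, Slc7a8 at 14.5 and 13.1 FPKM was above Slc38a1 at 8.49 and 6.91 FPKM. With MB-3, Slc7a8 at 7.05 and 8.18 FPKM was below Slc38a1 at 18.0 and 15.96 FPKM. Summed over its measured genes, Slc38a had 54.7 and 52.5 FPKM with DMSO and 69.0 and 68.3 with MB-3. The sum of Slc36a was 9.56 and 8.35 with DMSO and 18.4 and 19.5 with MB-3, and that of Slc16a 24.4 and 24.0 with DMSO and 37.6 and 32.6 with MB-3. That of Slc7a, without the genes set aside, went the other way, at 24.9 and 23.0 with DMSO and 15.7 and 18.0 with MB-3. The sums of Slc6a overlapped between groups, at 37.4 and 32.5 with DMSO and at 39.4 and 36.7 with MB-3.

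**Figure D3:**
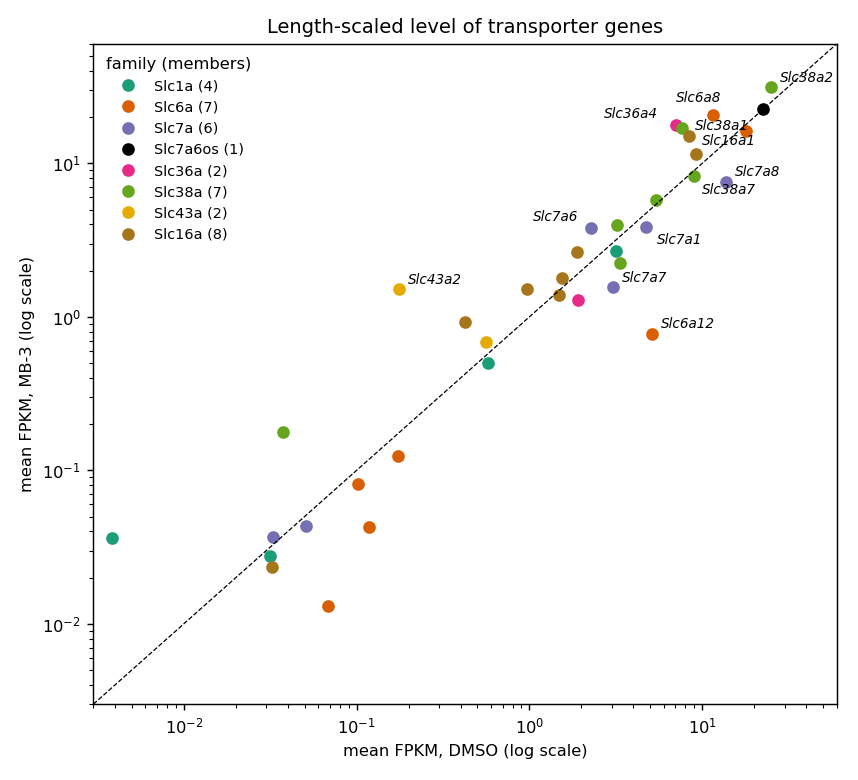
Mean FPKM (fragments per length and library total) of 37 of the genes with DMSO (horizontal, log scale) and with MB-3 (vertical, log scale), 2 libraries each, coloured by family. Points on the dashed line have the same level in both groups. Slc6a12 lies far below the line and Slc43a2 far above it, and Slc38a2 has the highest level of the carriers.

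**Figure D4:**
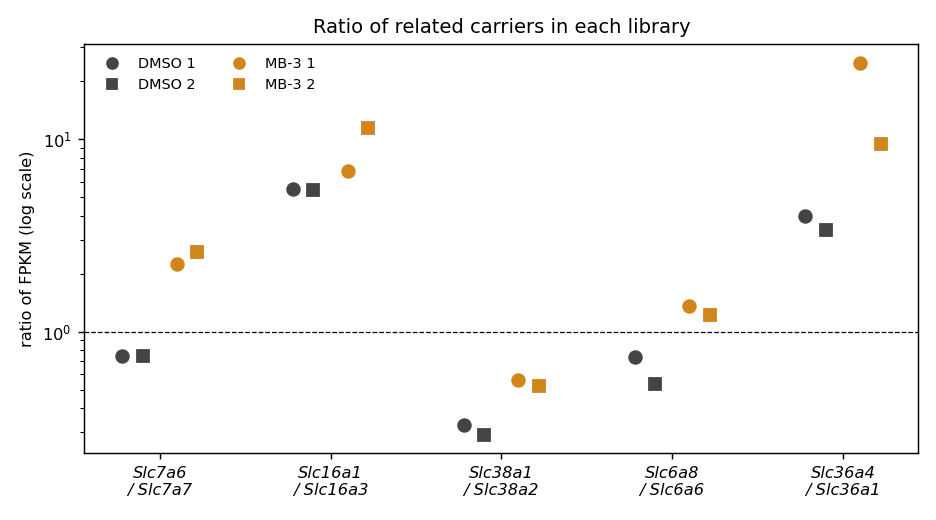
Ratio of FPKM of 5 pairs of related carriers in each library (log scale). Each pair was chosen after its values were seen. Slc7a6 over Slc7a7 and Slc6a8 over Slc6a6 are below 1 in both DMSO libraries and above 1 in both MB-3 libraries.

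The heavy chain and other partners of these carriers, and lysosomal exporters outside the families, were mostly higher. Of 16 genes listed, 10 could be tested, and 7 were higher, 1 lower and 2 not past the threshold. This is 80.0% called, against 37.1% of all genes, with a median log2 fold change of 0.55. The list was drawn up with earlier results of these data known, so this share is descriptive and no test of the list. Slc3a2 (ENSMUSG00000010095, chromosome 19, 8706882 to 8723369), the gene of the heavy chain CD98, was at 347 and 295 CPM with DMSO and at 702 and 625 CPM with MB-3. Both MB-3 libraries were far above the DMSO libraries, and Slc3a2 rose by 1.05 (SE 0.10, 2.07-fold, edgeR adjusted p = 6.49e-04). Its light chain genes moved in both directions. Slc7a7 and Slc7a8 fell, Slc7a6 and Slc7a11 (2.71) rose, and Slc7a5 (-0.37) did not pass. Mfsd12, which encodes a lysosomal importer of cysteine, was at 127 and 123 CPM with DMSO and at 541 and 519 CPM with MB-3. Its rise of 2.09 (SE 0.072, edgeR adjusted p = 1.29e-05) was the largest of the list, with no overlap of the groups. Slc15a4, which encodes an endolysosomal carrier of histidine and peptides, was at 17.0 and 16.9 CPM with DMSO and at 24.7 and 28.1 CPM with MB-3 and rose by 0.64 (SE 0.12). The far more abundant Slc15a3 of the same family was at 922 and 847 CPM with DMSO and at 1055 and 878 CPM with MB-3. Its groups overlapped, and it did not pass (0.13, SE 0.10, edgeR adjusted p = 0.379). Other members that rose were the lysosomal cystine exporter gene Ctns (0.67), the cationic amino acid exporter gene Slc66a1, listed in the table as Pqlc2 (0.55), the sialic acid exporter gene Slc17a5 (0.55) and Emb (0.37), whose product embigin accompanies monocarboxylate carriers. Bsg, the gene of basigin, the main partner of MCT1 and MCT4, was at 227 and 232 CPM with DMSO and at 257 and 258 CPM with MB-3 and did not pass (0.17, SE 0.069, edgeR adjusted p = 0.108). The gene that fell was Slc15a2, which encodes a peptide carrier, from 3.20 to 1.48 CPM (-1.10, SE 0.33), and this call was lost without any 1 of the libraries.

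Genes that sense amino acids on behalf of mTORC1 moved in both directions. Of 30 tested, 9 were higher and 5 lower (46.7% called, against 37.1% of all genes), with a median of 0.23. This list, too, was drawn up with earlier results of these data known, so its share is descriptive. The higher ones included Flcn, Fnip1 and Fnip2, the genes of folliculin and its binding partners, which act on the lysosomal Rag GTPases. Fnip2 was at 84.1 and 84.0 CPM with DMSO and at 338 and 341 CPM with MB-3, 4.04-fold higher with closely agreeing replicates (log2 fold change 2.01, SE 0.072, edgeR adjusted p = 1.35e-05). Rragd, the gene of the Rag GTPase RagD, was at 9.69 and 9.65 CPM with DMSO and at 27.99 and 29.7 CPM with MB-3 and rose by 1.58 (SE 0.12, edgeR adjusted p = 1.76e-04). Lower genes included Wdr59 and Seh1l of the GATOR2 complex, Kptn of KICSTOR, Lamtor5 of the Ragulator and Mtor itself. Mtor was the closest of them to the threshold (-0.44, SE 0.14, edgeR adjusted p = 0.0462). Wdr59 was at 30.0 and 29.1 CPM with DMSO and at 12.2 and 10.8 CPM with MB-3 and fell by 1.36 (SE 0.12, edgeR adjusted p = 3.79e-04). The other higher genes were Castor2, Sesn1, Sesn2, Lamtor1 and Lamtor3, which include sensors of arginine (Castor2) and leucine (Sesn1 and Sesn2), with rises from 0.34 to 0.72. Of the Ragulator genes, Lamtor1 was at 0.40 and Lamtor5, close to the threshold, at -0.29 (edgeR adjusted p = 0.0402). Leaving out a library gave fewer lower genes, 3 without DMSO replicate 1 or MB-3 replicate 1 and 2 without DMSO replicate 2 or MB-3 replicate 2, in place of 5.

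**Figure D5:**
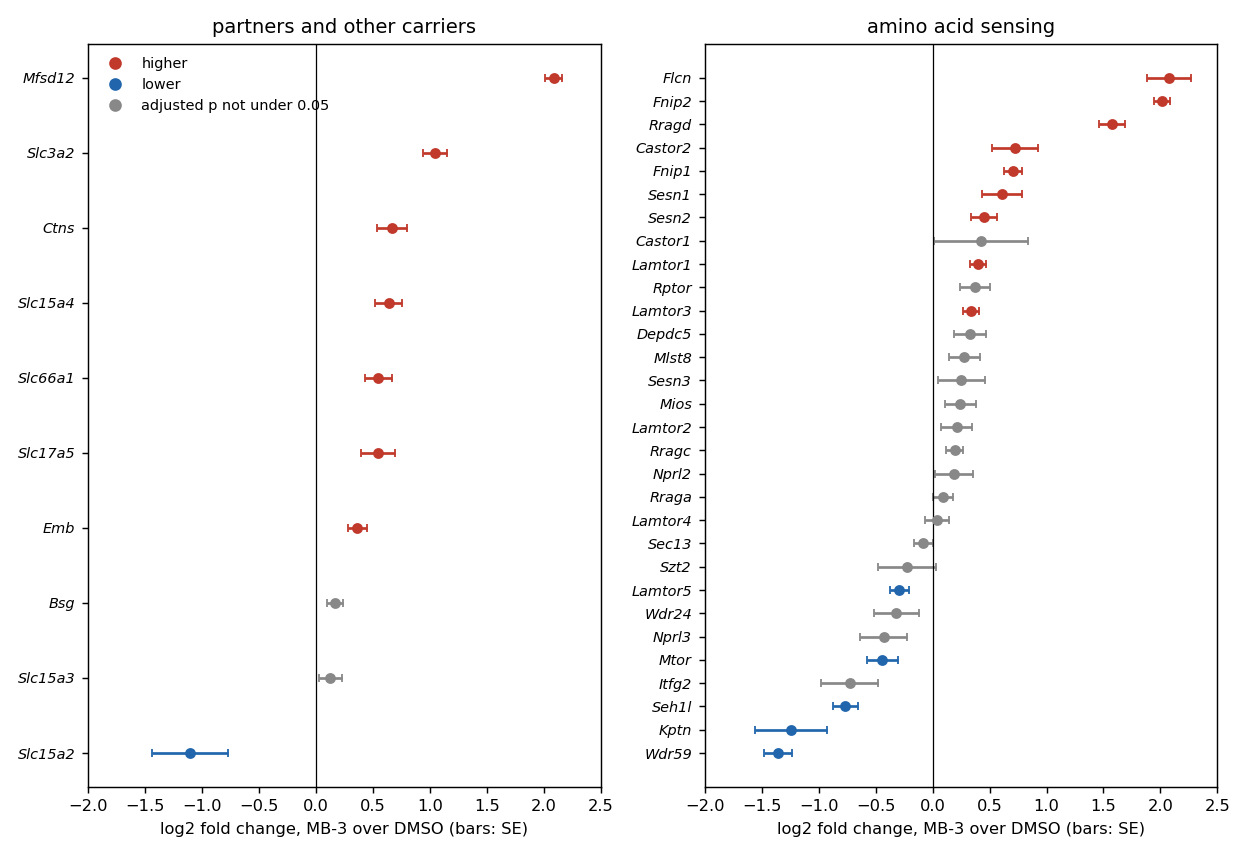
Log2 fold change of MB-3 over DMSO, with the standard error as bars, for the 10 tested partners and other carriers (left) and the 30 tested amino acid sensing genes (right). Red genes were higher and blue genes lower at an adjusted p under 0.05 in edgeR's quasi-likelihood test. Mfsd12, Flcn and Fnip2 reach about 2 log2 units, and Slc15a2 and Wdr59 are the lowest of their lists.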

How the data were processed

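RNA-seq of 4 libraries, 2 per group by their titles, was analysed. The deposited table gives whole counts per gene, not normalized, and FPKM, per the file headers. The deposited FPKM equal the counts rescaled by library total and gene length (implied lengths agreed within 0.1% in 100% of 58260 pairs). HISAT2, StringTie 1.3.0, edgeR, mm10 and GRCm38.p4 are named in the submitters' processing notes, and coordinates are those of the table. How multi-mapped reads and strand were treated is not given in the sources used here. Values of overlapping genes are therefore uncertain. The main test was edgeR 4.0.16 under R 4.3.3 (quasi-likelihood, filterByExpr, TMM, group only), with Benjamini-Hochberg adjustment over 11841 genes. Standard errors were the size of the log2 fold change over the root of F, and unlabelled values in brackets are log2 fold changes. Alternatives were median-ratio and upper-quartile factors, other filters (none, and a mean of at least 5 CPM), DESeq2 1.42.0, limma 3.58.1 on log2(FPKM + 1) and log2(FPKM + 0.1), a replicate block, and leaving out each library. On counts simulated for these 11841 genes, 75.0% of changes of log2 size 1 and 97.0% of size 2 were called for MB-3 against DMSO. Of unchanged genes, 0.0344% were called. The simulation gave every gene the same spread and changed only 200 genes. In the real data 37.1% of genes were called, so the simulated rates cannot be taken as those of the real comparison. Replicates were not copies (chi-square per degree of freedom of 13.0 for DMSO and 11.1 for MB-3). Counting intervals are 95%, exact, and cover counting error only. Slc1a1, Slc38a4 and Slc6a19 reached the count minimum only through the group where they were higher, so these intervals are no test of a difference. Full values were given, by rule, for called transporter genes averaging 5 CPM or more, the 6 uncalled ones with the highest mean FPKM, Slc3a2, Bsg and the 3 smallest p-values of both lists, and other genes were named after their values were seen. The members and lists were chosen with earlier results of these data known. The values of 1 counted gene are not reported here. Bmt2 of the sensing list was not found by symbol in the table.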

Additional observations from a re-analysis of the deposited data

How the results depend on the processing

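Of the 14 transporter genes past the threshold, 8 kept their call in all 12 alternative settings (Slc6a12, Slc7a7, Slc7a8, Slc38a6, Slc16a1, Slc38a1, Slc36a4 and Slc43a2), and 6 lost it in at least 1. Of the 18 reported here that were not past it, 6 passed in at least 1 and 8 changed sign in at least 1. Leaving out 1 library gave 1283 to 1802 higher and 1726 to 1936 lower genes in all, 5 to 8 higher and 4 to 5 lower transporter genes, 5 to 7 higher and always 0 lower partner genes, and 6 to 7 higher and 2 to 3 lower sensing genes. Here 3 libraries were fitted, and the lone library of a group was assumed to vary like the others. The lower partner gene was also lost (0 lower) under a mean of at least 5 CPM, under DESeq2 and under limma on log2(FPKM + 1). Higher sensing genes numbered 5 under limma on log2(FPKM + 0.1), and lower ones 3 under upper-quartile factors and under DESeq2. Among genes not past the threshold, leaving out 1 library turned the sign of Slc1a4 (range -0.47 to 0.28), Slc1a2 (-1.02 to 0.41), Slc7a4 (-0.99 to 1.15), Slc38a7 (-0.24 to 0.058), Slc16a6 (-0.22 to 0.11), Slc7a6os (-0.018 to 0.11), Slc16a3 (-0.28 to 0.66) and Slc43a3 (-0.24 to 0.76), and limma that of Slc7a6os (-0.00038 with log2(FPKM + 1), -0.00050 with log2(FPKM + 0.1)). The cause of these changes was not tested. Same-numbered libraries deviated together with r = 0.217 in both pairs, and 2 pairs do not establish a pairing. With the replicate number as a block, 5046 genes were called (4391 without), 11 transporter genes were higher and 5 lower. In that fit Slc7a1 (adjusted p = 0.0492), Slc16a7 (0.0483) and Slc16a10 (0.0257) passed and Slc6a19 (0.0670) was lost in edgeR's test. On the log2(FPKM + 1) scale the values of Slc43a2 and Slc6a12 were 1.10 and -1.78. Genes with few counts had wide errors, such as the SE of 0.89 for Slc7a4 with 31 counts.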
